A study of Bos taurus with 34 samples.

Results

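NFE2 (ENSBTAG00000001562), ITGA2B (ENSBTAG00000008165) and TUBB1 (ENSBTAG00000018785) are 3 of the 27570 genes counted in peripheral white blood cells (PWBC) of beef heifers, and all 3 are among the 10942 genes that reached 2 CPM (counts of a gene scaled to one total for every library) in 5 or more libraries. NFE2 was chosen because its transcript abundance differed between heifers that did and did not become pregnant in results already known for these libraries. ITGA2B and TUBB1 were chosen as genes of platelets, by their symbols. The question asked of the data was whether NFE2 followed the platelet genes from heifer to heifer.

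NFE2 is the tissue-restricted subunit of a basic leucine zipper transcription factor that pairs with small MAF proteins. It is best known for its need in megakaryocytes, the marrow cells that shed platelets, and it is also transcribed in granulocytes. ITGA2B is the alpha chain of the platelet fibrinogen receptor, the integrin that lets platelets aggregate. TUBB1 is the beta tubulin of megakaryocytes and platelets, where it forms the ring of microtubules that keeps a platelet flat. In megakaryocytes TUBB1 is a known target of NFE2. Platelets carry RNA without a nucleus, and a buffy coat, from which these cells were taken, holds platelets as well as leukocytes.

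Blood was drawn from crossbred Angus and Simmental heifers at fixed-time artificial insemination (AI), after the same synchronization of estrus in every heifer, and the heifers were exposed to bulls afterwards. The groups were named by the outcome: 6 heifers pregnant to AI (AI-preg), 6 pregnant to natural breeding with bulls (NB-preg) and 5 that did not become pregnant (non-pregnant). Each heifer gave 1 PWBC mRNA library and 1 plasma small RNA library, and the heifers are the replicates. The authors had dropped 1 more non-pregnant library before deposit. The cells were the leukocyte layer after lysis of red cells, taken in bulk, so fewer cells of a type and less RNA per cell cannot be told apart.

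The PWBC libraries held 4184999 to 67192941 counted read pairs, and those of non-pregnant heifers were the smallest as a group (4184999 to 20164587). Some leukocyte genes were measured in every library, among them the T cell kinase LCK (lowest 3.32 CPM), the B cell receptor chain CD79A (lowest 3.56 CPM) and the neutrophil calgranulin S100A12 (lowest 74.8 CPM). Others came near the floor. The neutrophil gene CXCR2 had 1 read pair (0.0402 CPM) in heifer 119, and the NK cell gene GZMB went down to 0 CPM in the non-pregnant group. The non-pregnant heifers 94, 107 and 113 stood apart from the other 14. Their mean log2(CPM + 1) over 5 neutrophil genes lay between 7.89 and 8.10, against 1.88 to 5.92 in the others, and they had the highest values of the leading principal component, which held 45.5% of the variance over genes. On that component they were not set off by a gap, with heifer 107 at 81.0 and heifer 108 at 69.5. Non-pregnant heifer 115, at -136, was the farthest from its median. Results that rest on these heifers are given with and without them.

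NFE2 spanned 754-fold over the 17 heifers, and its abundance was split within the non-pregnant group. In non-pregnant heifers it stood at 285 CPM in heifer 94, 277 in heifer 107 and 394 in heifer 113, but at 5.99 in heifer 101 and 6.76 in heifer 115. AI-preg heifers ranged from 0.523 CPM in heifer 119 to 85.5 in heifer 114, with a median of 6.06. NB-preg heifers ranged from 1.74 CPM in heifer 93 to 48.4 in heifer 103, with a median of 10.65. The 3 high non-pregnant heifers lay above all 12 pregnant heifers, and the other 2 lay inside the pregnant range, so the groups overlapped.

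ITGA2B had the same heifers at the top. Non-pregnant heifers 94, 107 and 113 had 41.4, 49.4 and 64.3 CPM of ITGA2B, heifer 101 had 6.71 and heifer 115 had 0.123, which is 1 counted read pair. The exact Poisson 95% interval of that single count runs from 0.00311 to 0.685 CPM and covers counting error only. AI-preg heifers ranged from 0.282 to 16.4 CPM with a median of 7.93, and NB-preg heifers from 1.07 to 29.3 CPM with a median of 3.40. As for NFE2, 3 non-pregnant heifers were above every pregnant heifer and the group as a whole was not.

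TUBB1 gave another order of heifers. It stood at 1534 CPM in heifer 92, 689 in heifer 99, 77.2 in heifer 114, 1485 in heifer 117, 974 in heifer 119 and 481 in heifer 120 of the AI-preg group. NB-preg heifers had 1779 CPM (heifer 93), 1860 (heifer 103), 131 (heifer 108), 611 (heifer 111), 5.00 (heifer 116) and 40.7 (heifer 121). Among non-pregnant heifers TUBB1 was at 1530 CPM in heifer 115, 418 in heifer 101 and 85.0 in heifer 113. It was almost undetected in heifers 94 and 107, with 1 and 4 read pairs, for which the exact Poisson 95% intervals end at 0.360 and 1.26 CPM. Heifers 94 and 107, which had the least TUBB1 of the 17, were therefore among the 3 with the most NFE2 and ITGA2B. Heifer 115 was the opposite case, with TUBB1 near the top of the range and ITGA2B at a single read pair.

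**Figure D1:**
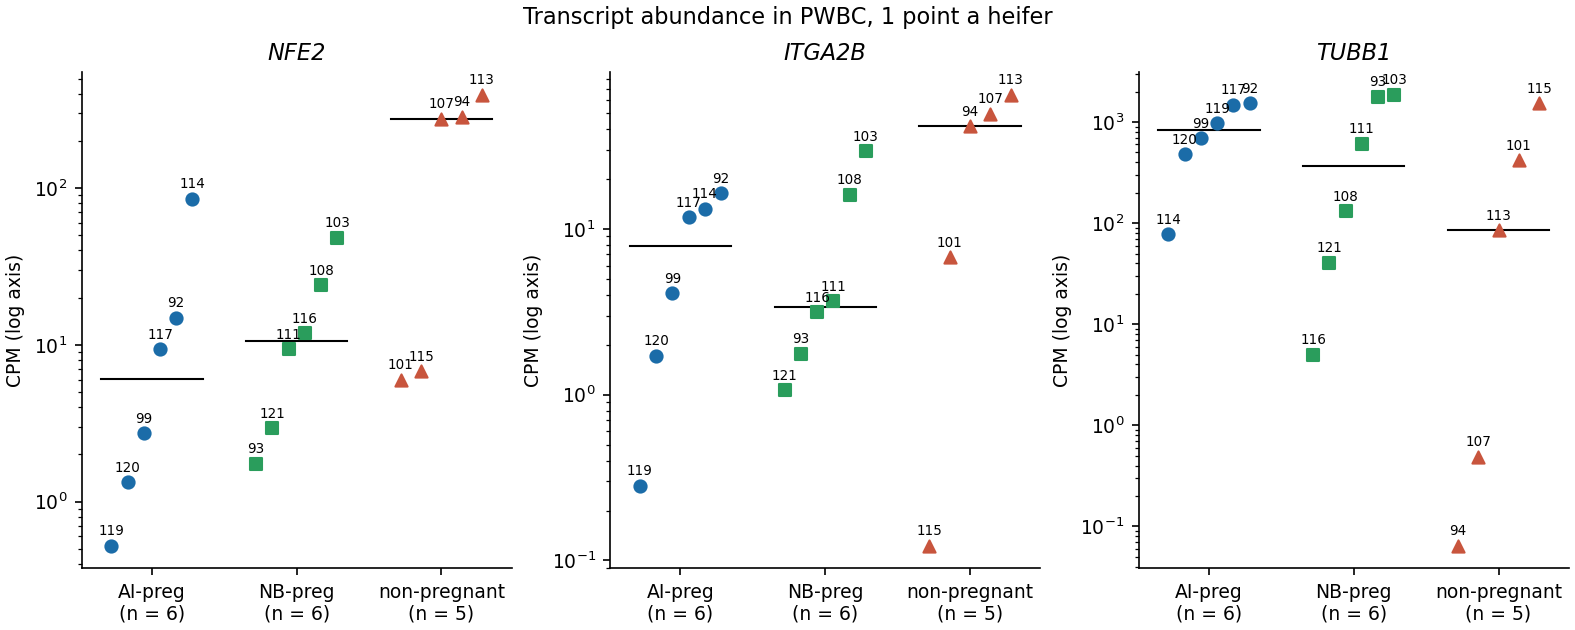
Transcript abundance of NFE2, ITGA2B and TUBB1 in PWBC, in CPM on a log axis, with 1 point a heifer labelled by heifer number and a line at the group median. Non-pregnant heifers 94, 107 and 113 lie above every pregnant heifer in NFE2 and ITGA2B, and heifers 94 and 107 lie at the bottom in TUBB1 (1 and 4 read pairs).

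All 3 genes varied more between heifers of one group than most genes did. The within-group SD of TUBB1 was 3.35 on the log2(CPM + 1) scale, against a median of 0.946 over the 10942 genes, and 2 genes of the 10942 (0.0183%), TUBB1 included, had an SD as large. NFE2 had an SD of 2.25, reached by 0.512% of genes, and ITGA2B one of 1.85, reached by 2.60%. Within groups TUBB1 thus spanned 19.9-fold in AI-preg and 372-fold in NB-preg heifers.

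The group difference that chose NFE2 is given only as a description. In a fit of edgeR's quasi-likelihood model to the 3 groups, NFE2 was higher in non-pregnant than in AI-preg heifers by 3.35 (SE 1.22) on the log2 scale and higher than in NB-preg heifers by 3.57 (SE 1.23). Both differences use the same 5 non-pregnant heifers. ITGA2B was higher by 2.04 (SE 1.09) and 1.83 (SE 1.08), and TUBB1 was lower, with log2 differences of -1.10 (SE 1.43) and -0.86 (SE 1.42). With 1 heifer left out, the difference of NFE2 ran from 2.92 to 5.07 against AI-preg, the highest without heifer 114, and from 3.14 to 4.28 against NB-preg, and that of ITGA2B from 1.63 to 2.39 and from 1.42 to 2.65. That of TUBB1 was as low as -2.80 and -2.55 without heifer 115. It rose to -0.78 against AI-preg without heifer 94, and against NB-preg it was -0.34 without heifer 103, -0.38 without heifer 93 and -0.54 without heifer 94 or 107. Between AI-preg and NB-preg heifers the log2 differences were 0.22 for NFE2, -0.21 for ITGA2B and 0.24 for TUBB1, each smaller than its SE. The median log2 difference over all 10942 genes was -0.15 and -0.048 against the pregnant groups with raw library totals and 0.16 and 0.13 with DESeq2's size factors, which put TUBB1 at -0.42 and -0.15. None of the 3 genes passed a Benjamini-Hochberg adjusted p of 0.05 by edgeR's quasi-likelihood test, and no gene at all did in any of the 3 comparisons (0 of 10942, 0%). At an unadjusted p of 0.05, edgeR called 5.35% of genes against AI-preg, 6.14% against NB-preg and 0.146% between the pregnant groups. DESeq2 called 5 genes (0.0457%) and 11 genes (0.101%) against AI-preg and NB-preg at its adjusted p of 0.05, and 0 between the pregnant groups. At an unadjusted p of 0.05, DESeq2 called 10.6%, 10.3% and 0.649% of genes in the same 3 comparisons. NFE2, chosen by this contrast, was among the unadjusted calls against both pregnant groups by edgeR and by DESeq2, and ITGA2B was among those of DESeq2 but not of edgeR. None of the 3 genes was among the DESeq2 calls at an adjusted p of 0.05, and the adjusted p of NFE2 by DESeq2 was 0.236 and 0.188.

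The direction of these differences depended on the heifers that stood apart. Without heifers 94, 107 and 113, which leaves 2 non-pregnant heifers, the log2 difference of NFE2 was -1.58 against AI-preg and -1.36 against NB-preg, that of ITGA2B was -1.24 and -1.45, and that of TUBB1 was 0.16 and 0.40. With the neutrophil score as a covariate in the edgeR fit, NFE2 was at -0.92 and -1.18 and ITGA2B at -1.31 and -1.25. None of these values passed an adjusted p of 0.05. Heifers 94, 107 and 113 had the most NFE2 and ITGA2B of all, so leaving them out had to lower the differences of both genes. The neutrophil score had an r of 0.954 with NFE2. The fit with that score therefore cannot tell a group difference of NFE2 from one of the score.

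NFE2 followed ITGA2B across heifers. Pearson's r of log2(CPM + 1) was 0.890 and Spearman's rho 0.860 over the 17 heifers (permutation p = 2e-05 and 6e-05, two-sided, adjusted over 3 pairs 6e-05 and 0.00018). Within groups r was 0.855 in AI-preg, 0.935 in NB-preg and 0.910 in non-pregnant heifers (exact permutation p = 0.0264, 0.00833 and 0.0667, adjusted 0.106, 0.05 and 0.20 over 12 relations within groups). After the group means were removed it was 0.894. It was 0.842 without heifers 113 and 94, which were farthest from the median of NFE2, and 0.784 without heifers 94, 107 and 113 (permutation p = 0.00089). The pair deviated in heifer 115, where NFE2 was at 6.76 CPM and ITGA2B at 1 read pair, and r was 0.929 without it.

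A high r was common in these libraries. Of the 10941 other genes, 124 (1.13%) had an r with NFE2 at least as high as that of ITGA2B, and 802 (7.33%) had an r with ITGA2B at least as high as that of NFE2. An r over 0.8 was held by 5.17% of genes with NFE2, by 15.1% with ITGA2B and by 0.43% with TUBB1, and an r under -0.8 by 4.84%, 5.44% and 0.0457%. ITGA2B lay close to the leading principal component, computed without the 3 genes (r = 0.965, rho = 0.966, permutation p = 1e-05 for each, the smallest that 100000 permutations can give). NFE2 had an r of 0.797 with that component and TUBB1 one of -0.388, adjusted permutation p = 0.000529 and 0.147 over 39 relations. What that component stands for was not tested.

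NFE2 did not follow TUBB1. Over the 17 heifers r was -0.618 (permutation p = 0.00824, adjusted 0.0124) and rho was -0.434 (permutation p = 0.0829, adjusted 0.124). The negative r rested on the heifers with the least TUBB1, since it was -0.300 without heifers 94 and 107 (permutation p = 0.274). Leaving out either of them alone also ended the call, with r = -0.513 without heifer 94 and r = -0.520 without heifer 107 (adjusted permutation p = 0.061 and 0.055). Without heifers 94, 107 and 113 r was -0.199, and among the 12 pregnant heifers it was -0.196 (permutation p = 0.547). Within groups r was -0.558 in AI-preg, 0.0783 in NB-preg and -0.80 in non-pregnant heifers, and none of these 3 had an exact permutation p under 0.05 (0.254, 0.879 and 0.192). Of all genes, 18.4% had an r with NFE2 at least as low as TUBB1 had, and 1.12% had an r with TUBB1 at least as low as NFE2 had.

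ITGA2B and TUBB1, both chosen as platelet genes by their symbols, did not follow each other either. Their r was -0.432 (permutation p = 0.083) and their rho -0.275 (permutation p = 0.287), and r was -0.0824 without heifers 94 and 107, 0.175 among the 12 pregnant heifers and 0.0527 without heifers 94, 107 and 113. An r at least as low was held by 26.9% of genes with ITGA2B and by 7.64% with TUBB1. With edgeR's TMM factors r was -0.522 and with DESeq2's size factors -0.515 (adjusted permutation p = 0.0313 and 0.0344), so the call depended on the scaling. The r of ITGA2B was -0.350 with the platelet gene MPIG6B and 0.933 with the T cell gene LCK. Whether ITGA2B stood for platelets in these libraries was not tested.

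**Figure D2:**
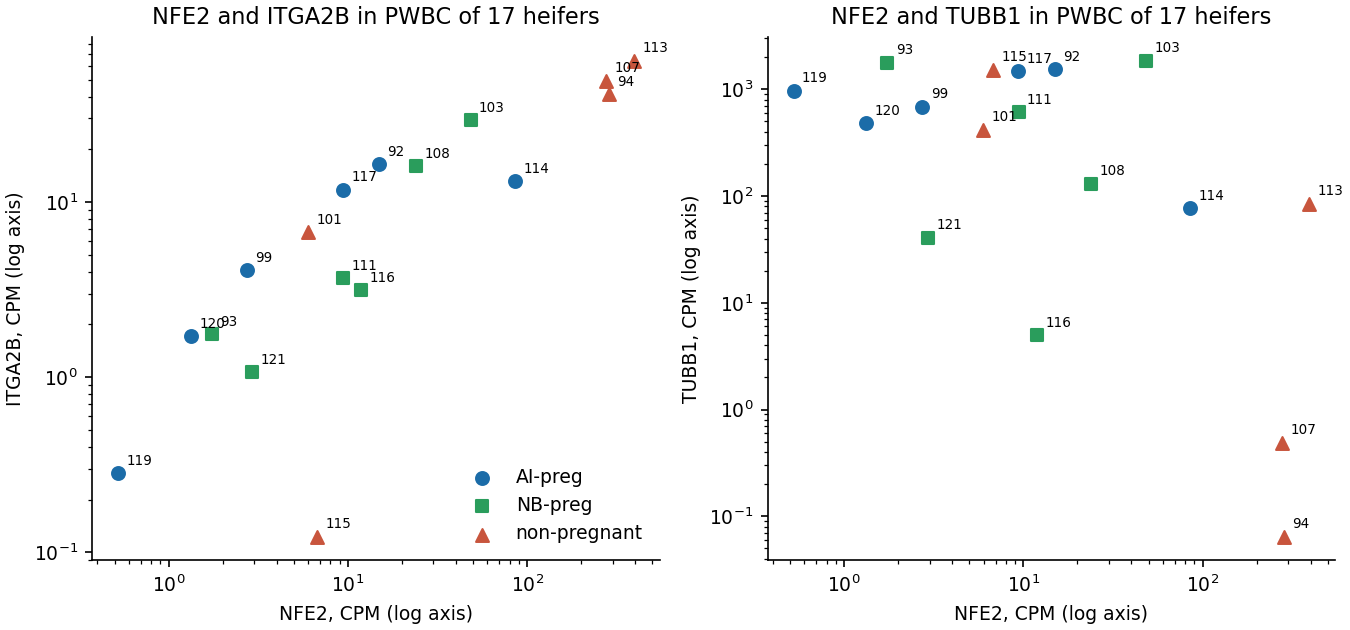
NFE2 against ITGA2B (left) and against TUBB1 (right) in PWBC of 17 heifers, both axes in CPM on a log scale, with colour and shape for the group and heifer numbers beside the points. ITGA2B increases with NFE2 (r = 0.890), while TUBB1 has r = -0.618, or -0.300 without heifers 94 and 107 at the lower right.

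The genes nearest to NFE2 were then listed, as the 8 with the highest r among genes with a symbol. They were FHL3, a LIM domain protein (r = 0.975), CSF3R, the receptor for granulocyte colony-stimulating factor (0.969), GPR132, a G protein-coupled receptor of leukocytes (0.969), EHD1, which recycles endosomes (0.966), DUSP2, a phosphatase of MAP kinases in activated leukocytes (0.963), PSMG4, a proteasome assembly chaperone (0.959), MARCKSL1 (0.948) and RPL36 (0.946). FHL3 had the highest r of all 10941 genes. CSF3R went from 0.402 CPM in heifer 119 to 1241 CPM in heifer 113, the same heifers that had the least and the most NFE2. The r of CSF3R with NFE2 was 0.972 within AI-preg, 0.890 within NB-preg and 0.979 within non-pregnant heifers. All 8 genes were listed for their r with NFE2 on these libraries. The shared extremes of CSF3R and its r are therefore no independent support. The 3 lowest r belonged to CLK1, a kinase of splicing factors (-0.952), KRIT1 (-0.948) and TMEM67 (-0.943). RPL36 is a ribosomal protein gene whose near-identical copies could lose shared reads, since reads with several alignments were removed.

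The nearest genes of ITGA2B were PPT2, a lysosomal thioesterase (r = 0.987), TBC1D10B, a GTPase-activating protein for Rab proteins (0.987), MEPCE, the capping enzyme of 7SK RNA (0.984), IL17RA, the receptor chain for interleukin-17A (0.982), FKBP2, a peptidyl-prolyl isomerase (0.982), CCDC107 (0.982), MAP3K14, the kinase of the noncanonical NF-kB pathway (0.981) and GPX1, a glutathione peroxidase (0.980). None of the 8 is a gene particular to platelets. PPT2 moved with ITGA2B within every group, with r of 0.996 in AI-preg, 0.960 in NB-preg and 0.997 in non-pregnant heifers. Among the lowest r were those of ANKRD46 (-0.956) and DBF4, the regulatory subunit of a replication kinase (-0.952). Symbols were known only for genes in the study's own tables of results, among them its list of coexpressed pairs on the same libraries, which holds PPT2, TBC1D10B, IL17RA and FKBP2 with ITGA2B, so these r are no independent support.

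MPIG6B, an inhibitory receptor of megakaryocytes and platelets, had the highest r with TUBB1 of all genes (r = 0.984, rho = 0.980, permutation p = 1e-05 for each). The study's list of coexpressed pairs on the same libraries holds TUBB1 with MPIG6B, so this r is no independent support. The p takes no account of MPIG6B being the highest of all genes. MPIG6B was at 0.194 CPM (3 read pairs) in heifer 94, 0.782 (5 read pairs) in heifer 116 and 0.859 (7 read pairs) in heifer 107, which are the 3 heifers with the least TUBB1. It reached 400 CPM in heifer 103, the heifer with the most TUBB1. Its r with TUBB1 was 0.976, 0.996 and 0.994 within the AI-preg, the NB-preg and the non-pregnant group and 0.982 without heifers 94, 107 and 113. The r of MPIG6B with NFE2 was -0.567 and with ITGA2B -0.350.

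SLC6A4, the serotonin transporter by which platelets take up serotonin, was the next gene with a symbol at r = 0.875 with TUBB1. Between it and MPIG6B lay 10 genes without a symbol. After it came NRIP3 at 0.872 and PDLIM1, an actin-linked PDZ and LIM protein found in platelets, at 0.850. SLC6A4 had 0 counts in heifers 94, 114 and 116 and at most 2.24 CPM in heifers 107, 108, 113 and 121, against 10.3 to 26.6 CPM in the other 10. PDLIM1 was at 0.0646 to 1.79 CPM in the same 7 heifers and at 10.3 to 49.6 CPM in the other 10. These 7 heifers were also the 7 with the least TUBB1 (at most 131 CPM), and they came from all 3 groups: heifer 114 was AI-preg, heifers 108, 116 and 121 were NB-preg, and heifers 94, 107 and 113 were non-pregnant. SLC6A4 and PDLIM1 were picked from the 8 genes with a symbol and the highest r with TUBB1 on these libraries. That they were low in the same heifers is therefore no independent support. Further down came MINDY3, a deubiquitinase (0.848), SLC19A2, a thiamine transporter (0.804), TRIM23 (0.793) and EED, a subunit of the Polycomb repressive complex (0.782). Of all these genes only MPIG6B was on the platelet list. The lowest r with TUBB1 were those of C3H1orf226 (-0.838), SLC25A33 (-0.817) and TIAM2 (-0.815).

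**Figure D3:**
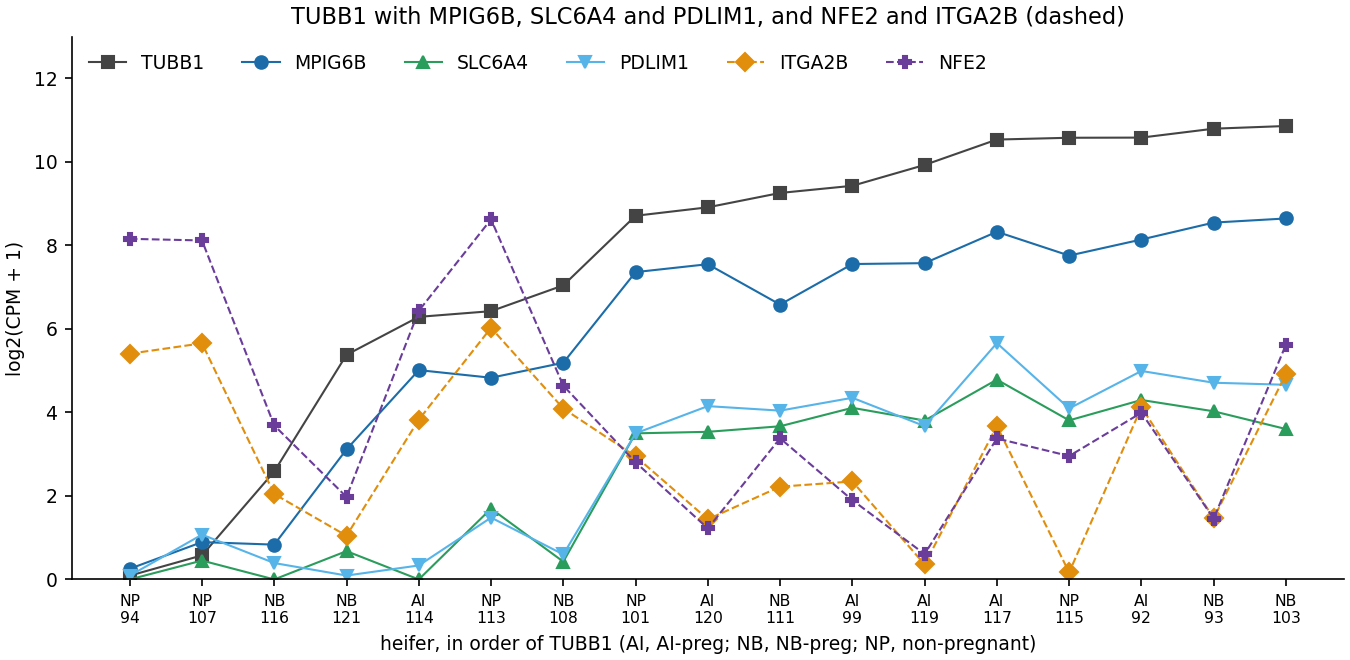
Abundance as log2(CPM + 1) of TUBB1, MPIG6B, SLC6A4 and PDLIM1 (solid lines) and of NFE2 and ITGA2B (dashed lines) in 17 heifers ordered by TUBB1. MPIG6B follows TUBB1 over the whole order, SLC6A4 and PDLIM1 are near 0 in the 7 heifers with the least TUBB1, and NFE2 and ITGA2B keep to another order. SLC6A4 and PDLIM1 were picked by their r with TUBB1 in these heifers.

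Lists of genes for cell types and pathways were compared with the 3 genes, as far as a symbol could be tied to an identifier. Because symbols came from the study's tables, the lists are short and hold genes that the study had picked on these libraries. Of 20 platelet genes only MPIG6B could be identified. Of 12 neutrophil genes 5 could be, namely CSF3R, S100A12, the chemokine receptor CXCR2, the activating receptor TREM1 and the maltase MGAM. All 5 had a positive r with NFE2 (0.740 to 0.969, median 0.796, against a median of -0.0935 over all genes) and a negative r with TUBB1 (-0.742 to -0.426, against 0.144 over all genes). With ITGA2B their r ran from 0.408 for MGAM to 0.937 for S100A12 (median 0.808, against 0.0835 over all genes). Genes with a symbol are not like all genes. An r over 0.8 with NFE2 was held by 355 of the 2227 other genes with a symbol, against 5.17% of all. With ITGA2B it was held by 894 of the 2227, against 15.1%. The medians over all genes are therefore no like background, and the r and p of these lists are no independent support.

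The mean log2(CPM + 1) of the 5 neutrophil genes had an r of 0.954 with NFE2 (rho = 0.912, permutation p = 1e-05 for each, adjusted 5.57e-05 over 39 relations for r). That r was 0.975, 0.701 and 0.999 within the AI-preg, the NB-preg and the non-pregnant group, 0.921 without heifers 113 and 94, and 0.867 without heifers 94, 107 and 113. For ITGA2B the r with the neutrophil score was 0.793 (rho = 0.684, adjusted permutation p = 0.000325), and it was 0.556 without heifers 94, 107 and 113 (adjusted permutation p = 0.103). For TUBB1 it was -0.709 (rho = -0.480, adjusted permutation p = 0.00407 for r and 0.0935 for rho) and -0.398 without those 3 heifers. Once the neutrophil score was removed from both genes by regression, r was 0.733 for NFE2 with ITGA2B (permutation p = 0.00104), 0.276 for NFE2 with TUBB1 (permutation p = 0.287) and 0.304 for ITGA2B with TUBB1 (permutation p = 0.238). The part of neutrophil number in these relations was not tested.

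Other leukocyte lists were closer to ITGA2B than to TUBB1. LCK, the only T cell gene identified, had an r of 0.933 with ITGA2B, 0.775 with NFE2 and -0.440 with TUBB1. The B cell gene CD79A had an r of 0.927 with ITGA2B, 0.698 with NFE2 and -0.231 with TUBB1. For the NK cell genes NKG7 and GZMB the r with ITGA2B was 0.656 and 0.680, that with NFE2 0.534 and 0.626, and that with TUBB1 -0.459 and -0.449. The eosinophil receptors IL5RA and HRH2 had an r of 0.721 and 0.743 with NFE2, 0.650 and 0.794 with ITGA2B and -0.302 and -0.564 with TUBB1. The mean log2(CPM + 1) of these receptors had an r of -0.501 with TUBB1, but 0.0980 without heifers 94 and 107. Without those heifers its r was 0.669 with NFE2 and 0.739 with ITGA2B. Genes of lymphocytes, granulocytes and ITGA2B were all high in heifers 94, 107 and 113, but they did not keep 1 order in the others. In heifer 116 CXCR2 was at 85.9 CPM and ITGA2B at 3.13, and in heifer 115 MGAM was at 37.5 CPM and ITGA2B at 0.123. The differences between these r were not tested.

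Among regulators of megakaryocytes only GATA1 could be identified, a factor of erythroid cells, megakaryocytes, eosinophils and mast cells. It was at most at 7.85 CPM (heifer 107) and at 0 counts in heifers 101, 116, 119 and 121, and its r was 0.909 with NFE2, 0.799 with ITGA2B and -0.573 with TUBB1. Without heifers 94 and 107 these r were 0.859, 0.728 and -0.0531. GATA1 reached 2 CPM only in heifers 94, 103, 107, 113 and 114, and it passed the filter through them alone. These were also the 5 heifers with the most NFE2, so the r of GATA1 with NFE2 is no independent support. The rho of GATA1 with TUBB1 over all heifers was -0.120 (permutation p = 0.643). In heifers 92, 93, 103, 115 and 117, which had the most TUBB1 (1485 to 1860 CPM), GATA1 had 10, 3, 33, 2 and 14 read pairs. Of the regulators of granulocytes SPI1, the factor PU.1, had an r of 0.943 with NFE2 and 0.956 with ITGA2B. RARA, a retinoic acid receptor, had an r of 0.626 and 0.393 with the same genes, and KDM6B, a histone demethylase, 0.770 and 0.543. With TUBB1 the 3 regulators had r from -0.598 to -0.498.

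The genes that switch on the fibrinogen receptor inside platelets also act in leukocytes, and 5 of 13 were identified. FERMT3 (kindlin-3), RASGRP2, an exchange factor for Rap1, VAV1, the kinase LYN and CIB1, which binds the tail of ITGA2B, had an r with ITGA2B of 0.918, 0.933, 0.866, 0.536 and 0.847. Their r with TUBB1 ran from -0.344 to -0.148 and that with NFE2 from 0.465 to 0.813. The other integrin alpha chains identified, ITGA4 and ITGA6, did not share this course, with an r of -0.497 and -0.406 with ITGA2B, -0.556 and -0.400 with NFE2, and 0.424 and 0.187 with TUBB1. No identifier was known for any of the 8 relatives and partners of NFE2, the 12 other tubulins, the 12 red cell genes or the 7 monocyte genes on the lists, and they were not analysed here. By edgeR's quasi-likelihood test none of the list genes given here passed an adjusted p of 0.05 in any comparison.

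**Figure D4:**
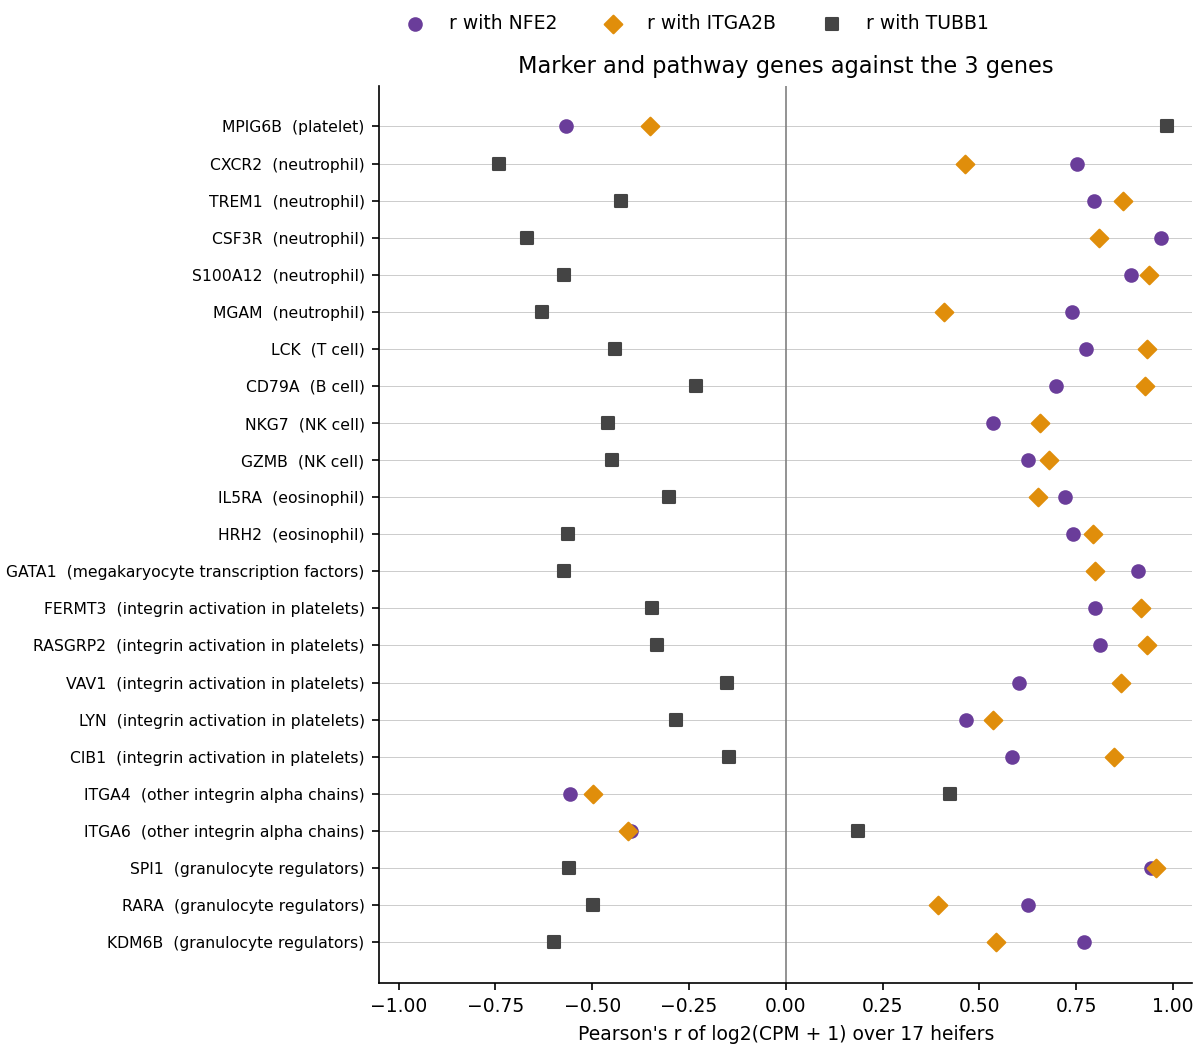
Pearson's r over 17 heifers of 23 marker and pathway genes with NFE2 (circles), ITGA2B (diamonds) and TUBB1 (squares), with the list of each gene in parentheses. MPIG6B is the gene with a high r with TUBB1 (0.984), while the neutrophil genes lie on the positive side for NFE2 and ITGA2B and on the negative side for TUBB1.

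Plasma of the same heifers gave a further readout. Its miRNAs could be named only through the study's tables, which hold pairs of plasma miRNAs and PWBC genes picked on these libraries. The paper also reports NFE2 among genes that gained negative coexpression with plasma miRNAs in non-pregnant heifers. The r of PWBC genes with these miRNAs are therefore no independent support. The small RNA libraries held counts on genes as well as on miRNAs, counted by the authors as single reads without regard to strand. NFE2 had 0 to 10 counts per plasma library and ITGA2B 0 to 6, with 0 counts in 5 and 11 of the 17 libraries, so neither could be compared at this depth. TUBB1 was counted in all 17, with 13 to 541 counts, or 2.05 to 32.2 CPM of all plasma counts. It ranked 201st of 14280 genes with a plasma count. As CPM of all plasma counts it was highest in heifers 116 (32.2) and 107 (31.8), while heifer 94, with 1 TUBB1 read pair in PWBC, was at 16.8, near the median of 15.2.

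A single gene without a symbol, ENSBTAG00000037264, took 49.5% to 92.5% of the plasma counts, so shares of the total depend on it. As CPM of all plasma counts, plasma TUBB1 had an r of -0.458 with PWBC TUBB1 (rho = -0.392, permutation p = 0.0628 and 0.119, adjusted 0.314 and 0.446 over 15 relations). With that gene left out of the total, r was -0.785 and rho -0.740 (permutation p = 0.00018 and 0.001, adjusted 0.000225 and 0.00137 over 5 relations). On that scale r was -0.752, -0.858 and -0.841 within the AI-preg, the NB-preg and the non-pregnant group and -0.785 without heifers 94 and 107, so plasma TUBB1 was higher in heifers with less TUBB1 in PWBC. MPIG6B did the same, with r = -0.834 between its plasma and PWBC values on that scale (rho = -0.738, permutation p = 3e-05 and 0.0011, adjusted 5e-05 and 0.00137) and r = -0.521 on all plasma counts (rho = -0.377, permutation p and adjusted p = 0.032 and 0.135). Within plasma TUBB1 and MPIG6B moved together, with r = 0.903 on the one scale and 0.855 on the other (rho = 0.831 and 0.811, permutation p = 1e-05 and adjusted 2.5e-05 for each r). This scaling and the MPIG6B relations were chosen after the data were seen. With ENSBTAG00000037264 left out, the miRNA MIR25 was at 30450 to 97470 CPM in heifers 94, 107, 108, 113, 114 and 116. It was at 13790 in heifer 121 and at most 29000 in the others. Heifer 103, with the most PWBC TUBB1, was at 29000. On all plasma counts the r of MIR25 with PWBC TUBB1 was -0.106. Whether higher plasma values in heifers with less PWBC TUBB1 were particular to TUBB1 and MPIG6B was not tested. MIR21 and MIR26B had a positive r with PWBC TUBB1 on that scale. The share of plasma genes with such an r was not computed. Plasma TUBB1 had an r of 0.0196 with PWBC NFE2 and -0.142 with PWBC ITGA2B (rho = 0.0980 and -0.0466, permutation p = 0.941 and 0.586).

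**Figure D5:**
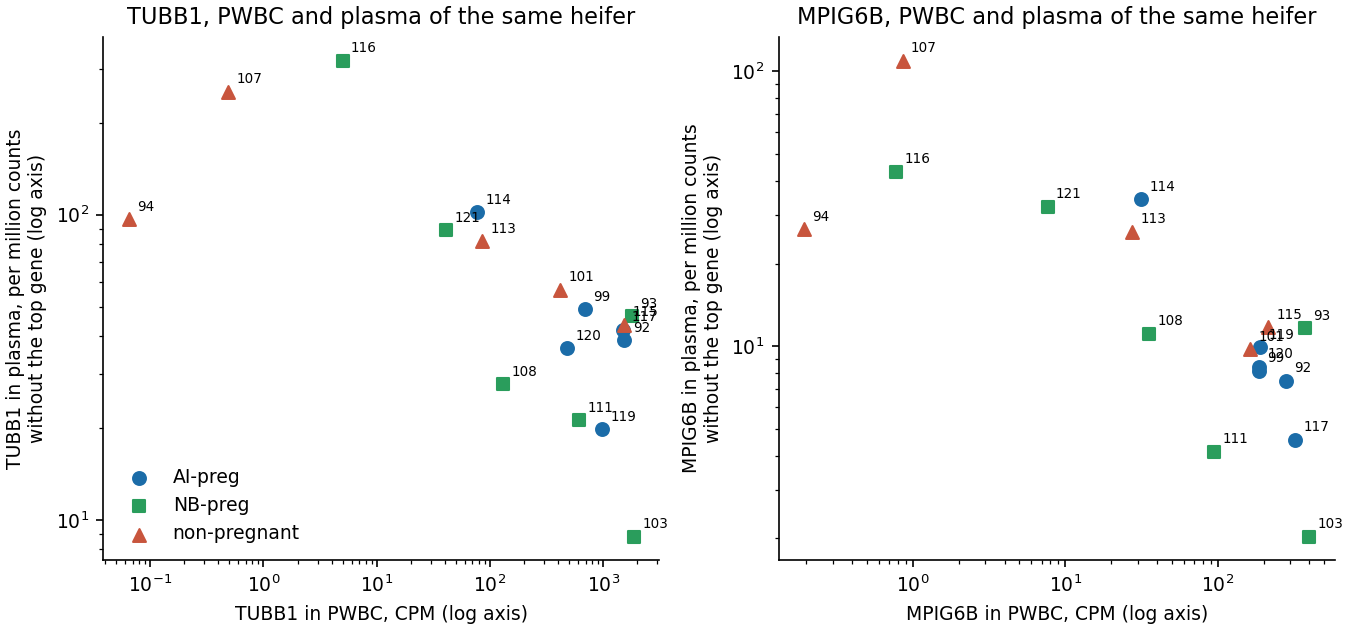
TUBB1 (left) and MPIG6B (right) in PWBC (CPM, log axis) against the same gene in plasma of the same heifer (CPM of plasma counts without the top gene, log axis), with 1 point a heifer. Both genes are lower in plasma where they are higher in PWBC (r = -0.785 and -0.834), and heifers 116 and 107 have the highest plasma values of TUBB1 (320 and 253 CPM).

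Of the plasma miRNAs that are abundant in platelets, 4 could be identified, MIR197, MIR21, MIR26B and MIR25. PWBC TUBB1 had an r of 0.643 with MIR21 and 0.643 with MIR26B (rho = 0.699 and 0.708, permutation p = 0.00589 and 0.00549, adjusted 0.0442 for each over 15 relations). Without heifers 94 and 107 these r were 0.777 and 0.771. Within groups they were 0.174 and 0.301 in AI-preg, 0.928 and 0.957 in NB-preg and 0.530 and 0.475 in non-pregnant heifers. The calls were lost with group means removed (r = 0.617 and 0.615, adjusted permutation p = 0.071) and with the top plasma gene left out (r = 0.484 and 0.516, adjusted permutation p = 0.087 and 0.0729). They were also lost in 13 of 17 fits that left out 1 heifer, for each miRNA. MIR197 and MIR25 had an r of 0.384 and -0.106 with TUBB1 (rho = 0.490 and -0.0490, adjusted permutation p = 0.383 and 0.856 for r). With NFE2 and ITGA2B the 4 miRNAs had r between -0.393 and 0.182, and none of these 8 relations had an adjusted permutation p under 0.383. Where MIR26B was paired with NFE2 in the study's own tables, the pair was chosen on these libraries.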

How the data were processed

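The deposited values were counts of reads per gene that the authors made from mRNA of PWBC and small RNA of plasma of 17 heifers. The authors aligned reads to ARS-UCD1.2 with HISAT2 2.1.0, removed reads with several alignments or 5 or more mismatches, ignored duplicates, and counted with featureCounts 1.6.0 (per the labels), by strand and in pairs for PWBC and as single reads without strand for plasma. The annotation version differs between the methods text and the code. The authors normalized nothing in these files, and every column was used. Symbols came from the supplementary tables, which named 2335 identifiers, 2228 of them among the 10942 PWBC genes that reached 2 CPM in at least 5 libraries. CPM used totals over those genes. Plasma genes needed over 1 CPM in at least 5 libraries. In RefSeq (ARS-UCD2.0) NFE2 overlaps HNRNPA1 and ITGA2B overlaps LOC132343085, so reads there may be shared.

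Groups were compared with edgeR 4.0.16 (quasi-likelihood test, robust, raw library totals as in the authors' code, 1 fit of 3 groups, R 4.3.3) with Benjamini-Hochberg adjustment, and with DESeq2 1.42.0 as an alternative. Correlations of log2(CPM + 1) were tested with 100000 permutations, two-sided, or by exact permutation within groups, in Python 3.11.15 with numpy 2.4.6, scipy 1.17.1 and pandas 2.3.3. The edgeR quasi-likelihood test and the permutation test of Pearson's r were tested on simulated data, and DESeq2 was not. Genes named were the 3 genes, the identified genes of the lists, and for each of the 3 the 8 highest and 3 lowest r among genes with a symbol, and 2 genes under this rule are not reported here. The genes and lists were chosen with earlier results of these data known. Alternatives were TMM and DESeq2 scaling, filters, tests, pseudocounts, Spearman's rho, group means, neutrophil score or library total removed, and each heifer left out. Non-pregnant libraries were the shallowest (4184999 to 20164587 counts), so low counts are least precise there, and intervals cover counting error only. No sequence was used.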

Additional observations from a re-analysis of the deposited data

Results flagged for a closer look

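MPIG6B in AI-preg heifers had 1 value far from the others: heifer 114 stood at 5.01 on the log2(CPM + 1) scale (31.3 CPM), below the other 5 heifers, and its gap to the nearest of them was 0.766 of the group's range. TUBB1 of the same heifer was the lowest of its group at 77.2 CPM. Of 15 groups looked at in this way (NFE2, ITGA2B, TUBB1 and MPIG6B in PWBC and TUBB1 in plasma, in 3 groups each) this was the only one past Dixon's limit, and chance passes about 1 in 20.

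Reads on TUBB1 were counted in small RNA libraries of plasma, which were made for miRNAs. Whether these reads came from its mRNA was not tested. The median over the 17 plasma libraries was 15.2 CPM (74 counts), and each library lay above the 3 counts that a count of 0 allows.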

How the results depend on the processing

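The r of NFE2 with ITGA2B kept its sign and its call under all 11 alternatives and with each heifer left out (0.866 to 0.929). That of NFE2 with TUBB1 lost its call by Spearman's rho (-0.434), with group means removed (-0.501), on CPM without a log (-0.453) and without heifers 94, 107 and 113 (-0.199) or 94, 107 and 116 (-0.383). It was 0.276 with the neutrophil score removed and ranged from -0.686 to -0.513 with 1 heifer left out, losing the call without heifer 94 or 107. That of ITGA2B with TUBB1 gained a call with TMM factors (-0.522), DESeq2 size factors (-0.515) and without heifer 103, 116 or 121, ranged from -0.528 to -0.308 with 1 heifer left out, and turned positive with the neutrophil score removed (0.304) and without heifers 94, 107 and 113 (0.0527). With the neutrophil score, the r of ITGA2B was 0.556 without heifers 94, 107 and 113, and that of TUBB1 lost its call by rho (-0.480), on CPM without a log (-0.387) and without heifers 94, 107 and 113 (-0.398) or 94, 107 and 116 (-0.368). With 1 heifer left out these r ranged from 0.942 to 0.971 for NFE2, 0.745 to 0.849 for ITGA2B and -0.760 to -0.621 for TUBB1, and from 0.980 to 0.987 for TUBB1 with MPIG6B, none losing its call. The cause was not tested for any of these.

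PWBC against plasma TUBB1 passed the threshold without the top plasma gene (-0.785) and ranged from -0.542 to -0.347 with 1 heifer left out. The calls of TUBB1 with MIR21 and MIR26B were lost with that gene left out (0.484 and 0.516), a pseudocount of 0.1 (0.591 and 0.598), group means removed (0.617 and 0.615), library total removed (0.616 and 0.650), and without heifers 94, 107 and 116 (0.585 and 0.649). With 1 heifer left out they ranged from 0.577 to 0.724 and from 0.572 to 0.701.

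DESeq2 called 5 and 11 genes against AI-preg and NB-preg where edgeR called 0, and edgeR called 0 with each heifer left out. With the neutrophil score as covariate the log2 differences of NFE2 were -0.92 and -1.18 and those of ITGA2B -1.31 and -1.25. Without heifers 94, 107 and 113 they were -1.58 and -1.36 for NFE2, -1.24 and -1.45 for ITGA2B, and 0.16 and 0.40 for TUBB1. Between AI-preg and NB-preg the covariate gave -0.26 for NFE2, 0.058 for ITGA2B and -0.22 for TUBB1, and with 1 heifer left out the differences ranged from -1.50 to 0.93, -0.56 to 0.62 and -0.018 to 0.77, changing sign. With 1 heifer left out NFE2 stayed higher in non-pregnant heifers, by 2.92 to 5.07 against AI-preg (5.07 without heifer 114) and 3.14 to 4.28 against NB-preg, and TUBB1 stayed lower, at -2.80 to -0.78 and -2.55 to -0.34. Heifers 94, 107, 113 and 116 and the scalings of plasma and of marker scores were chosen after the data were seen. Pairs of numbers do not link heifers of different groups: No paired analysis was possible because no heifer is in more than 1 of the groups compared.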
